A study of Homo sapiens with 4 samples.

Results

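The claudins described here were 10 genes, CLDN1, CLDN2, CLDN3, CLDN4, CLDN7, CLDN10, CLDN12, CLDN14, CLDN15 and CLDN18, chosen by name and measured by every probe that the platform annotation assigns to them. They had 17 of the 47322 probes on the array. The RNA came from H358 cells, an established line from a human lung adenocarcinoma, and was profiled on 4 one-colour Illumina BeadChips, where a probe's signal is the mean over its beads. In 2 arrays the cells had received an shRNA, a short hairpin RNA that directs degradation of a matching transcript, against ADAR, whose product edits adenosine to inosine in paired RNA. In the other 2 they had received a scrambled sequence. The labels name the knockdown samples "ADAR B" without saying what B stands for, and give no promoter, time after transfection or clonal origin. The series design calls the replicates biological, but nothing says that they came from separate cultures, so p-values measure the spread between these samples, which may be technical.

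Claudins are membrane proteins of the tight junction, the seal that joins neighbouring epithelial cells near their apical surface. Their extracellular loops pair with claudins of the next cell, and the set of claudins that a cell makes decides which ions and solutes pass between cells. Some, such as claudin-1, claudin-3 and claudin-14, are known mainly as barrier formers, while claudin-2, claudin-15 and one form of claudin-10 form channels for cations. In lung epithelium claudin-3, claudin-4, claudin-7 and claudin-18 are known as prominent members.

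Between 18722 and 19294 probes were detected on the ADAR shRNA arrays, against 20031 to 20901 on the scrambled arrays, and the upper quartile of raw signal was 92.1 to 94.5 against 115 to 143. Detected means that the deposited detection p-value, which compares a probe with the negative controls of its array, was under 0.05. The targeted gene was lower in the knockdown: the brightest ADAR probe, ILMN_1776777, read 9.88 and 10.19 in ADAR shRNA cells, against 10.89 and 11.23 in scrambled cells, on the scale of normalized log2 signal. It fell by 1.03 (SE 0.22, adjusted p = 0.00561 with limma). A second ADAR probe, ILMN_2320964, differed by -0.19 (SE 0.25, adjusted p = 0.557), and the third, ILMN_1706963, was detected on 1 array of scrambled cells and was not tested. A probe was tested if it was detected on at least 2 of the 4 arrays, with limma, and was said to rise or fall in ADAR shRNA cells at a Benjamini-Hochberg adjusted p under 0.05 over all 21263 probes tested. Of these, 24.2% rose and 26.3% fell. The split depended on scaling: 48.0% of the changed probes rose, but 24.97% after median scaling and 19.2% where arrays were left unnormalized, with the all-probe median at -0.38 in the first case and -0.52 in the second.

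The claudins moved in both directions. CLDN1 and CLDN15 were higher in ADAR shRNA cells by 3.61 and 2.20 log2 units, and CLDN3 and CLDN10 were at or near background there and well above it in scrambled cells. CLDN7 fell less, CLDN14 rose slightly, CLDN4 and CLDN12 did not pass the test, and CLDN2 and CLDN18 had no probe that entered it. Of the 17 claudin probes 10 were tested, from 8 genes, and 3 rose and 4 fell, while 24.2% of all probes tested rose, 26.3% fell and 50.6% changed either way. Counted by the brightest probe of each gene, 3 of 8 rose and 3 fell, with a median of -0.03 against -0.08 for 12197 genes. These shares over so few members do not set claudins apart from other genes. CLDN3 and the CLDN10 probe ILMN_1685194 entered the test through the scrambled arrays alone. RNA was taken from whole cultures, in which fewer cells with a transcript and less of it per cell cannot be told apart.

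**Figure D1:**
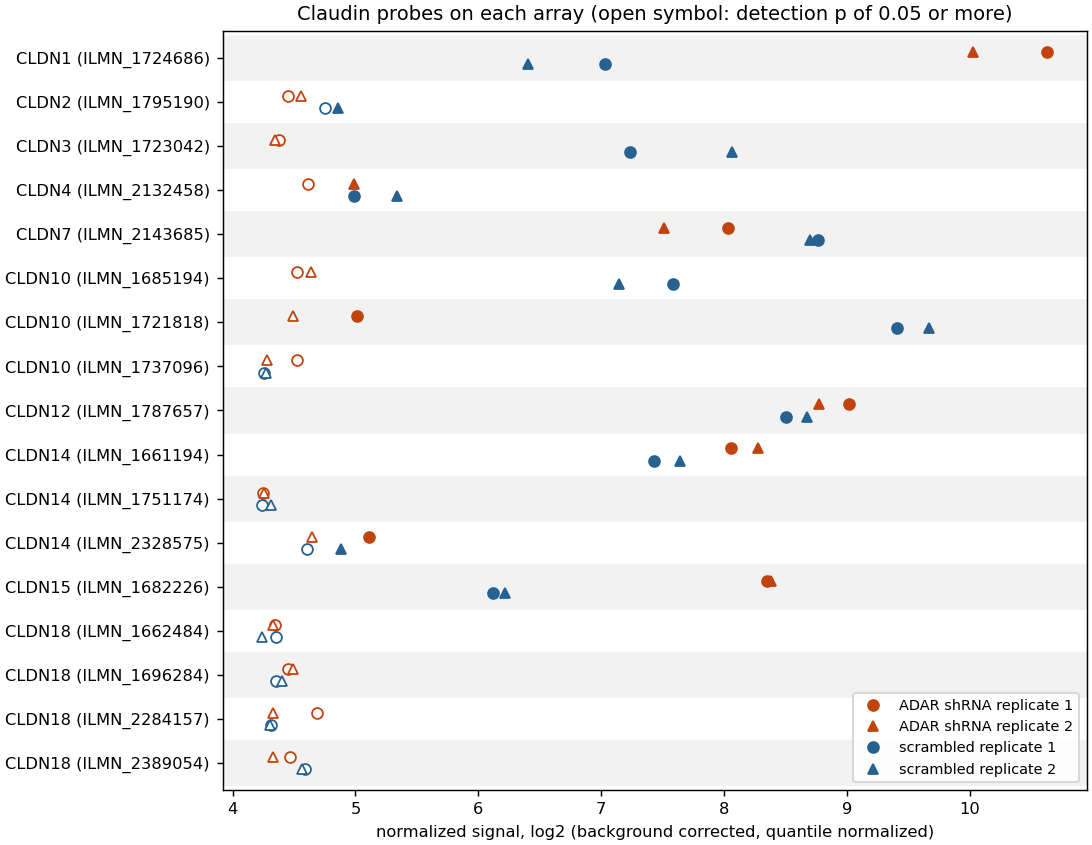
Normalized log2 signal (horizontal axis) of the 17 claudin probes on each of the 4 arrays, with ADAR shRNA arrays in red above scrambled arrays in blue, circles for replicate 1, triangles for replicate 2 and open symbols where the probe was not detected. CLDN1 and CLDN15 lie to the right in ADAR shRNA cells, CLDN3 and 2 CLDN10 probes lie between 4.35 and 5.01 there and between 7.14 and 9.67 in scrambled cells, and the 4 CLDN18 probes are open on every array.

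**Figure D2:**
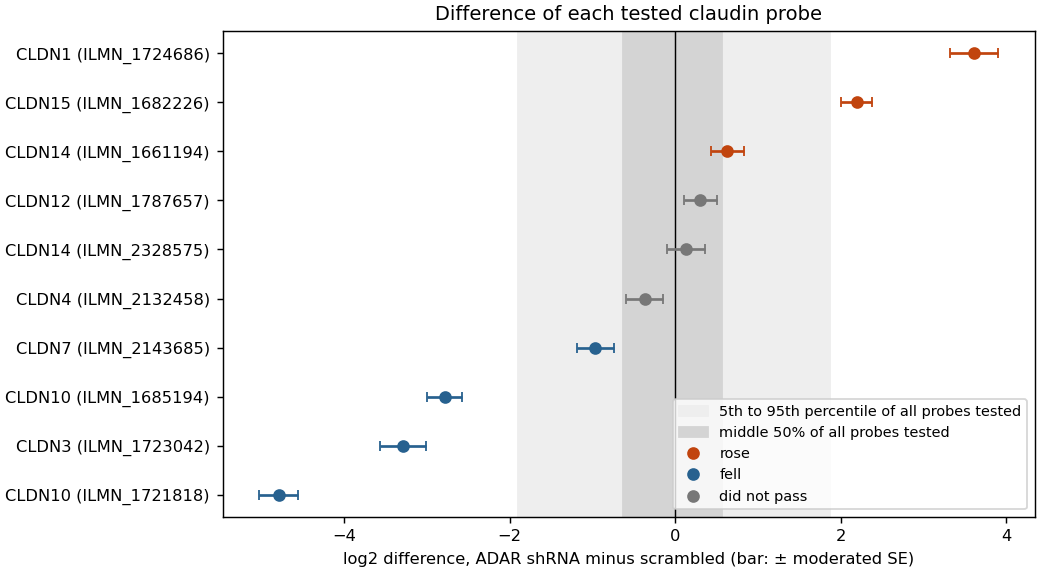
Log2 difference of each of the 10 tested claudin probes, ADAR shRNA minus scrambled, with its moderated SE as a bar, over the interquartile range (dark band) and the range between the 5th and the 95th percentile (light band) of all 21263 probes tested. CLDN1, CLDN15, CLDN3 and both tested CLDN10 probes lie outside the light band.

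CLDN1 encodes claudin-1, a barrier claudin that is essential for the water barrier of the skin. Its probe, ILMN_1724686, read 10.63 and 10.03 in ADAR shRNA cells, against 7.03 and 6.40 in scrambled cells. The groups were far apart, and within each group replicate 1 was the brighter array. The raw signals behind these values were 1274 and 833 in ADAR shRNA cells, against 231 and 130 in scrambled cells, each the mean of 18 to 22 beads. The bead standard errors were 66.1 and 26.4 in ADAR shRNA cells, against 16.1 and 9.93 in scrambled cells, so replicates of a group differed by more than bead error. The means were 10.33 ± 0.43 in ADAR shRNA cells and 6.72 ± 0.44 in scrambled cells (SD, n = 2 each). CLDN1 rose 12.2-fold, by 3.61 (SE 0.29, adjusted p = 4.11e-05). Of all probes tested, 1.05% had a higher difference.

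CLDN3 and CLDN4 encode barrier claudins that also serve as receptors for a clostridial enterotoxin, and the genes are direct neighbours on chromosome 7. The CLDN3 probe ILMN_1723042 read 4.38 and 4.35 in ADAR shRNA cells, against 7.24 and 8.07 in scrambled cells. It was not detected on either ADAR shRNA array (raw signal 48.7 and 46.2), and its scrambled signals were 262 and 350. CLDN3 fell at least 6.67-fold in ADAR shRNA cells (fitted difference -3.29, SE 0.28, adjusted p = 5.66e-05). This bound, like those below, is against the lowest detected signal of each array and applies to the main background correction alone. The CLDN4 probe ILMN_2132458 was dim throughout, at 4.61 and 4.99 in ADAR shRNA cells, against 4.99 and 5.34 in scrambled cells. Of the ADAR shRNA arrays 1 of 2 detected it and of the scrambled arrays both, with raw signals of 56.6 and 62.7 against 77.9 and 78.7. The difference of CLDN4 was -0.37 (SE 0.22, adjusted p = 0.21), so the neighbours gave different calls, and the difference between them was not tested.

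CLDN7 encodes claudin-7, which is known to bind the epithelial adhesion molecule EPCAM and lies along the lateral membrane as well as in tight junctions. Its probe, ILMN_2143685, read 8.03 and 7.51 in ADAR shRNA cells, against 8.77 and 8.70 in scrambled cells. It was detected on all 4 arrays, with raw signals of 235 and 173 in ADAR shRNA cells, against 703 and 532 in scrambled cells. The mean was 7.77 ± 0.37 in ADAR shRNA cells and 8.73 ± 0.05 in scrambled cells (SD, n = 2 each), so the replicates of ADAR shRNA cells were the farther apart. CLDN7 fell 1.95-fold, by 0.96 (SE 0.23, adjusted p = 0.00887), where 16.5% of all probes tested had a lower difference. The call was lost when replicate 2 of the ADAR shRNA cells was left out (-0.70, adjusted p = 0.0636). It was also lost with the authors' processed values (-1.02, adjusted p = 0.0519), while median scaling gave a larger fall (-1.65).

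Of the channel-forming claudins, CLDN10 and CLDN15 went opposite ways. CLDN10 makes proteins that differ in their first extracellular loop, of which claudin-10b is a cation channel and claudin-10a an anion channel. The probes ILMN_1721818 and ILMN_1685194 are annotated to the claudin-10b transcript and ILMN_1737096 to that of claudin-10a, and whether they lie in exons that the forms share was not checked. ILMN_1721818 read 5.01 and 4.49 in ADAR shRNA cells, against 9.41 and 9.67 in scrambled cells, and ILMN_1685194 read 4.52 and 4.64 against 7.58 and 7.14. Both probes were thus far lower in every ADAR shRNA sample. The raw signals of ILMN_1721818 were 64.9 and 51.7 in ADAR shRNA cells, against 1056 and 993 in scrambled cells, and in ADAR shRNA cells 1 of 2 arrays detected it. It fell at least 24.0-fold against background (fitted difference -4.79, SE 0.24, adjusted p = 5.00e-06), and 0.353% of all probes tested had a lower difference. ILMN_1685194, undetected on both ADAR shRNA arrays, fell at least 5.47-fold (fitted difference -2.79, SE 0.22, adjusted p = 3.72e-05). The probes share a transcript and are not independent of each other. ILMN_1737096 was detected on none of the 4 arrays, with raw signals of 42.3 to 54.3 in ADAR shRNA cells and 43.2 to 43.9 in scrambled cells.

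CLDN15 encodes a cation channel best known from the intestine, where it lets sodium return to the lumen. Its probe, ILMN_1682226, read 8.35 and 8.38 in ADAR shRNA cells, against 6.12 and 6.22 in scrambled cells. The replicates of each group lay close together, and the groups did not overlap. The raw signals were 281 and 285 in ADAR shRNA cells, against 138 and 118 in scrambled cells, with bead standard errors of 4.83 to 9.49 over the 4 arrays. The means were 8.36 ± 0.02 in ADAR shRNA cells and 6.17 ± 0.07 in scrambled cells (SD, n = 2 each). CLDN15 rose 4.59-fold, by 2.20 (SE 0.19, adjusted p = 5.58e-05), and 3.67% of all probes tested had a higher difference. CLDN2, the cation and water channel of leaky epithelia, stayed at the limit of detection: its probe, ILMN_1795190, had raw signals of 51.7 and 53.8 in ADAR shRNA cells, against 69.4 and 65.7 in scrambled cells. It was detected on 1 array, scrambled replicate 2, and was not tested.

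CLDN12, CLDN14 and CLDN18 complete the set. CLDN12 encodes a claudin that lacks the PDZ-binding end by which most claudins attach to scaffold proteins. Its probe, ILMN_1787657, read 9.02 and 8.77 in ADAR shRNA cells, against 8.50 and 8.68 in scrambled cells, a difference of 0.30 (SE 0.20, adjusted p = 0.238). Its raw signals ran the other way, with 424 and 356 in ADAR shRNA cells against 590 and 522 in scrambled cells, and the difference turned to -0.41 under median scaling and to -0.55 for unnormalized arrays. Neither sign passed the test, and relative to the median of all probes CLDN12 lay at -0.03 under both of those scalings.

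CLDN14 encodes a barrier claudin of the inner ear and kidney whose loss causes deafness in humans. Its brightest probe, ILMN_1661194, read 8.06 and 8.27 in ADAR shRNA cells, against 7.43 and 7.64 in scrambled cells, and rose by 0.63 (SE 0.20, adjusted p = 0.0304) after quantile normalization. The raw signals were 238 and 266 in ADAR shRNA cells, against 297 and 266 in scrambled cells, and thus were not higher in ADAR shRNA cells before normalization. Median scaling gave a difference of -0.03 (adjusted p = 0.901), and unnormalized arrays gave -0.17 (adjusted p = 0.546). Relative to the median of all probes, which those scalings shift, the difference was 0.35 in both. The call was also lost without ADAR shRNA replicate 1, ADAR shRNA replicate 2 or scrambled replicate 1 (0.74, 0.52 and 0.52, adjusted p = 0.0602, 0.154 and 0.115). A second CLDN14 probe, ILMN_2328575, was detected on 1 array of each group, read 5.11 and 4.64 in ADAR shRNA cells against 4.60 and 4.88 in scrambled cells, and differed by 0.13 (SE 0.23, adjusted p = 0.659). The third, ILMN_1751174, was detected on no array.

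CLDN18 encodes the claudin of alveolar epithelium and, as another isoform, of stomach. Of its 4 probes, ILMN_1696284, ILMN_2284157 and ILMN_2389054 are annotated to the lung transcript and ILMN_1662484 to the stomach transcript. Raw signals of the lung transcript's probes were 45.3 to 58.5 in ADAR shRNA cells and 46.0 to 63.4 in scrambled cells, and those of the stomach transcript's probe 45.4 to 47.2 and 40.7 to 52.6. None was detected on any array, so CLDN18 was not above background in these cells and no direction can be read.

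**Figure D3:**
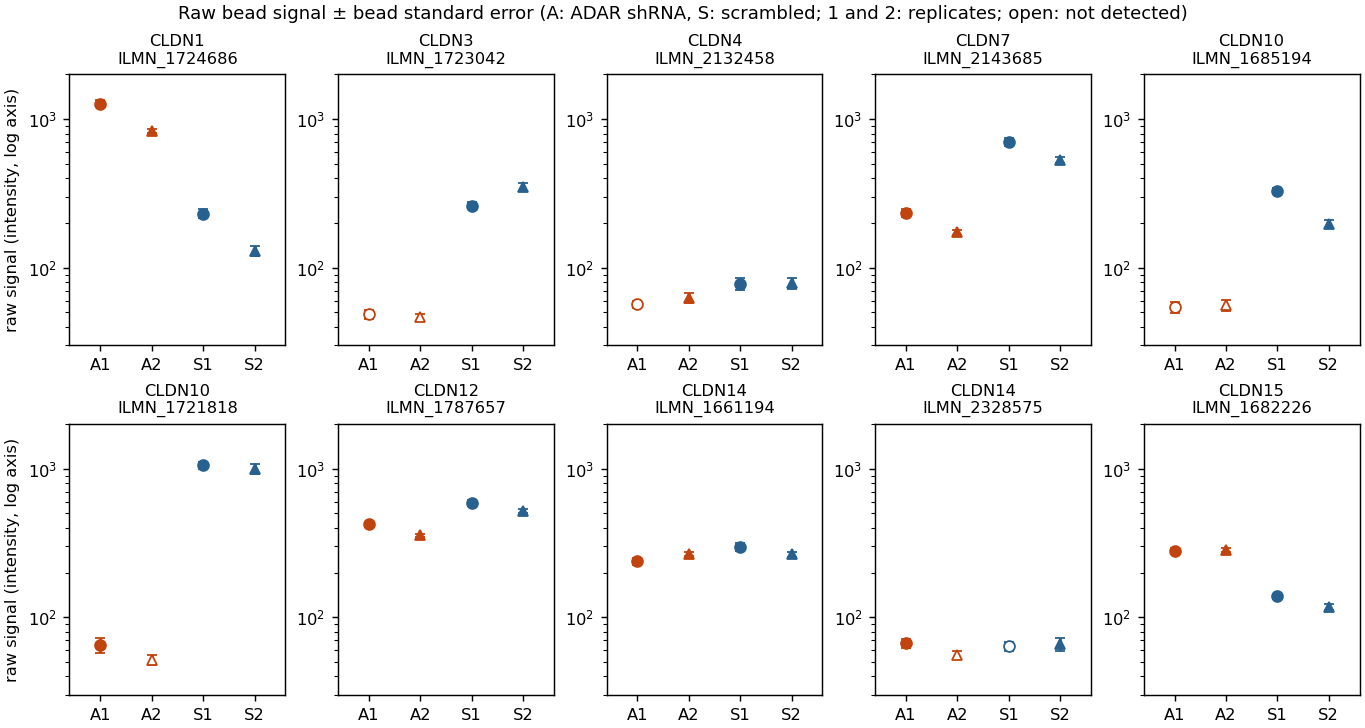
Raw signal intensity (log axis) of the 10 tested claudin probes on the ADAR shRNA arrays (A1, A2) and the scrambled arrays (S1, S2), with the bead standard error as a bar and open symbols where the probe was not detected. CLDN1 and CLDN15 are brighter on both ADAR shRNA arrays before any normalization, whereas CLDN12 is dimmer there and the CLDN14 probe ILMN_1661194 is not brighter there.

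CLDN1, CLDN15, CLDN3 and both tested CLDN10 probes kept their direction and their call under every alternative in which they were tested. Across these, the difference ranged from 2.90 to 3.93 for CLDN1, from 1.48 to 2.50 for CLDN15, from -3.71 to -2.12 for CLDN3 and from -5.56 to -3.67 for the CLDN10 probe ILMN_1721818. For CLDN3 and CLDN10 these are fitted differences against signals at or near background in ADAR shRNA cells, and their size depends on how background is treated. With a background offset of 50 in place of 16, CLDN3 fell by a fitted -2.12. The CLDN10 probes ILMN_1721818 and ILMN_1685194 then gave -3.67 and -1.79. Each is a smaller fall than the bound given above, which was computed at an offset of 16. The -5.56 came from the authors' processed values, with values under 16 set to 16. Relative to the median of all probes, CLDN1 lay at 3.42, CLDN15 at 1.996, CLDN3 at -3.19, CLDN7 at -1.27, CLDN14 (ILMN_1661194) at 0.35 and CLDN12 at -0.03 under median scaling.

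**Figure D4:**
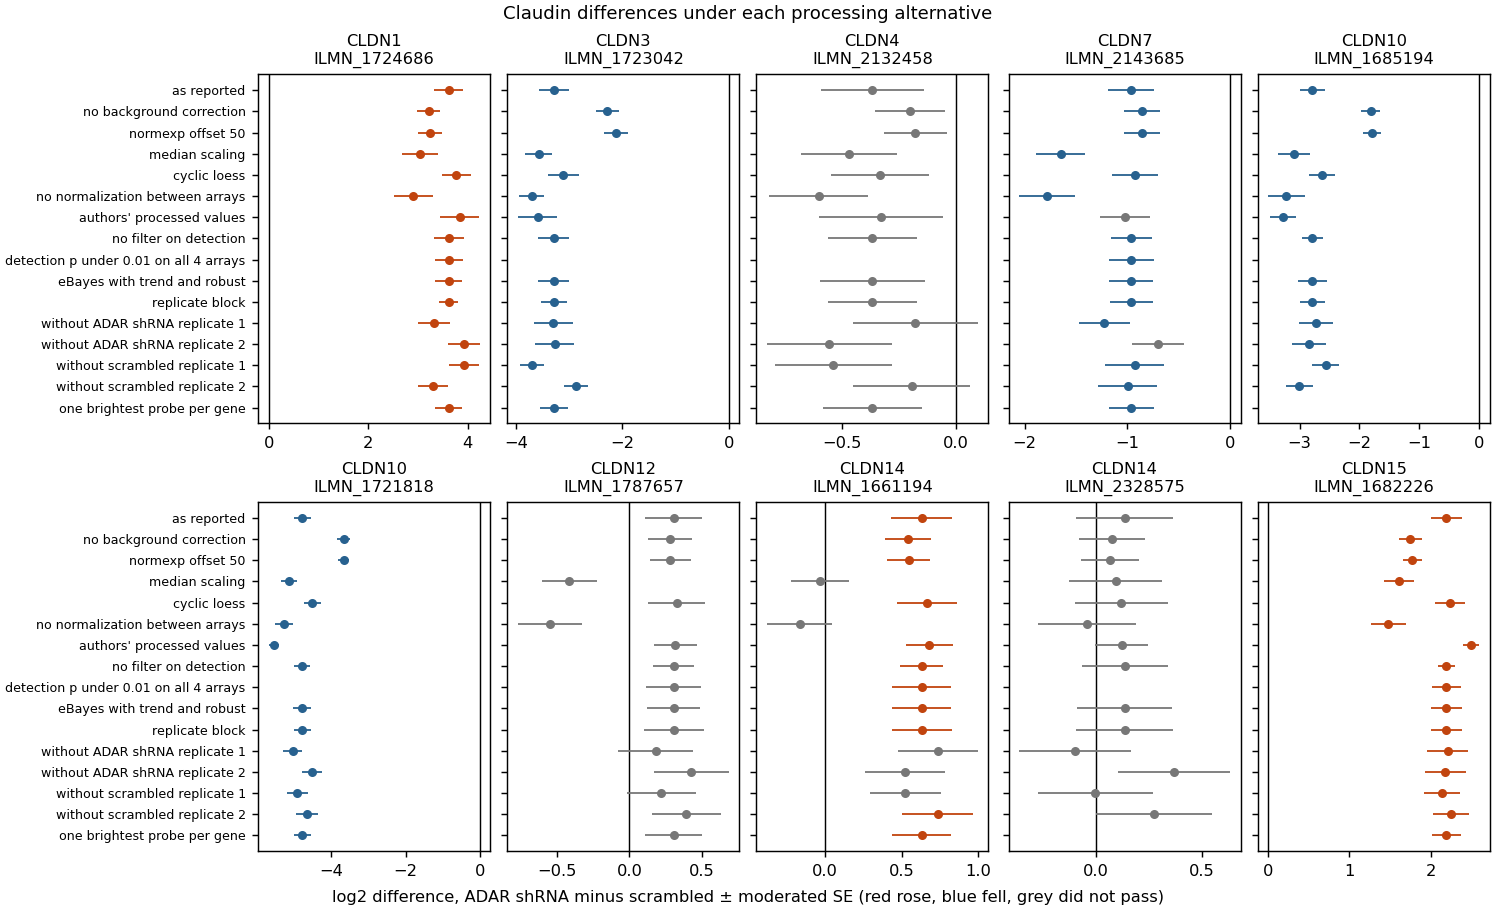
Log2 difference, ADAR shRNA minus scrambled, of each tested claudin probe with its moderated SE under each way of processing, in red where it rose, blue where it fell and grey where it did not pass; each panel has its own horizontal scale. CLDN12 and the CLDN14 probe ILMN_1661194 cross 0 under median scaling and for unnormalized arrays.

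The other genes of the tight junction and of its control were taken from lists, and each gene was read from its brightest tested probe, where 24.2% of 12197 genes rose and 30.3% fell. Of the 5 other claudins tested 0 rose and 2 fell. CLDN11, the claudin of myelin and testis, read 5.09 and 5.32 in ADAR shRNA cells, against 7.82 and 7.65 in scrambled cells, and fell by 2.53 (SE 0.20, adjusted p = 3.77e-05). The brightest CLDN9 probe, ILMN_1740276, fell at least 3.53-fold, with no detection in ADAR shRNA cells (adjusted p = 0.000415). Another CLDN9 probe, ILMN_1683757, read 4.53 and 5.06 in ADAR shRNA cells, against 4.35 and 4.42 in scrambled cells, was detected on ADAR shRNA replicate 2 alone and was not tested. CLDN19, CLDN20 and CLDN23 did not pass (0.17, -0.34 and -0.52), and 8 more claudins, among them CLDN5 and CLDN6, were annotated but had no tested probe.

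Among 6 other membrane proteins of the junction, 1 rose and 4 fell. JAM3, a junctional adhesion molecule of the immunoglobulin family, rose by 3.71 (SE 0.21, adjusted p = 9.96e-06), with its probe at 8.83 and 8.93 in ADAR shRNA cells, against 5.38 and 4.97 in scrambled cells. LSR, the angulin that organizes contacts of tricellular junctions, fell at least 11.6-fold (adjusted p = 3.10e-05), and MARVELD3, a relative of occludin, at least 3.29-fold (adjusted p = 0.00015). Dimmer tested probes had smaller bounds, at least 3.06-fold for LSR (adjusted p = 0.000143). For MARVELD3 they were at least 1.15-fold and 1.41-fold (adjusted p = 0.00848 and 0.00607). OCLN itself, which encodes occludin, was not tested. Among 9 scaffold and plaque genes 1 rose and 4 fell. CGN and CGNL1, which encode cingulin and paracingulin and link the junction to the cytoskeleton, fell at least 19.8-fold and 3.11-fold (adjusted p = 4.08e-06 and 0.000191). YBX3, a Y-box factor that binds the scaffold ZO-1, rose by 1.47 (SE 0.19, adjusted p = 0.000417), and TJP1, the gene of ZO-1, was detected on all 4 arrays and fell by 0.77 (SE 0.20, adjusted p = 0.0123), but its second probe did not pass (-0.55, adjusted p = 0.0546).

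Of 12 genes of the apical polarity complexes 2 rose and 3 fell. PARD6A and PARD6G, adaptors of the PAR complex, rose by 1.38 (SE 0.19, adjusted p = 0.000666) and at least 1.47-fold (adjusted p = 0.0129), but another PARD6A probe differed by 0.32 (adjusted p = 0.314). PARD6G lost its call in 4 alternatives, among them the authors' processed values (0.69, adjusted p = 0.171) and without ADAR shRNA replicate 1 or scrambled replicate 1 (0.66 and 0.74, adjusted p = 0.0892 and 0.0664). CRB3, an apical determinant, and LLGL2, a basolateral one, fell at least 2.88-fold and 2.36-fold (adjusted p = 0.000105 and 0.000433). Over the 6 lists, 6 of 48 tested genes rose and 24 fell, with 6 and 31 under median scaling, where 13.1% of all genes tested rose and 46.9% fell. Of the 24 that fell, 17 were read from a probe detected on neither ADAR shRNA array, and of the 6 that rose, 3 from one detected on neither scrambled array. These passed the filter only through the group where they are high, so the counts are a description. With detection required on all 4 arrays at p under 0.01, 1 of 16 tested genes rose and 5 fell, where 26.3% of all genes tested rose and 28.5% fell.

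Proteins that act on claudins after synthesis were measured through 8 genes, of which 0 rose and 6 fell. EPCAM, which binds claudin-7, read 4.79 and 4.48 in ADAR shRNA cells, against 12.82 and 13.05 in scrambled cells, and fell at least 260.0-fold (adjusted p = 3.67e-07). Dimmer EPCAM probes fell at least 141-fold and 37.9-fold (adjusted p = 3.82e-07 and 1.58e-06). SPINT2, an inhibitor of the protease matriptase, which cleaves EPCAM, fell at least 144-fold (adjusted p = 3.67e-07). ST14, the gene of matriptase itself, also fell, at least 9.47-fold (adjusted p = 9.68e-06 with limma). CLDN7, the partner of EPCAM, was detected on all 4 arrays, at 1.95-fold lower in ADAR shRNA cells.

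Transcription factors known to act on claudin genes were measured through 8 genes, of which 2 rose and 5 fell. SNAI2, a repressor that binds E-boxes in junction genes, fell at least 18.4-fold (adjusted p = 2.41e-06), and OVOL2, an epithelial factor, at least 7.83-fold (adjusted p = 6.71e-06). A dimmer SNAI2 probe fell at least 5.56-fold (adjusted p = 0.000203). The brightest probes of ZEB2 and TWIST2, repressors known from epithelial to mesenchymal transition, were undetected on both scrambled arrays and rose at least 1.90-fold and 1.86-fold (adjusted p = 0.00546 and 0.00161). A second ZEB2 probe, ILMN_1820767, read 4.56 and 4.43 in ADAR shRNA cells, against 4.57 and 4.88 in scrambled cells, was detected on scrambled replicate 2 alone and was not tested. ZEB2 did not pass with the authors' processed values (1.27, adjusted p = 0.0514).

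**Figure D5:**
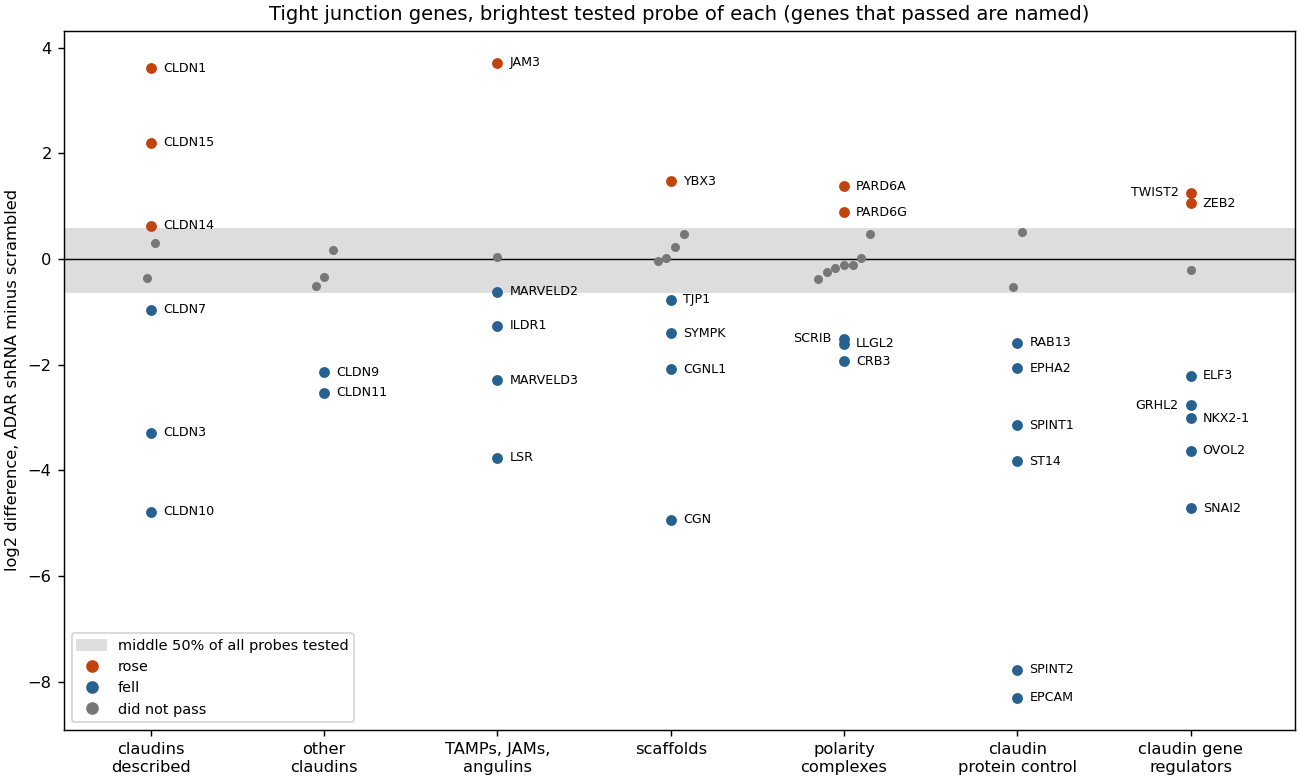
Log2 difference (vertical axis), ADAR shRNA minus scrambled, of the brightest tested probe of each claudin described and of each gene in 6 lists of tight junction genes, in red where it rose, blue where it fell and grey where it did not pass; the band is the interquartile range of all probes tested. CLDN1 and JAM3 are the highest points, at 3.61 and 3.71, and EPCAM is the lowest, at a fitted -8.30 that rests on a signal not above background in ADAR shRNA cells.

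Because SNAI2 and ZEB2 bind the E-box CAGGTG, promoter windows of 4 of the 6 claudins that changed, CLDN1, CLDN15, CLDN3 and CLDN7, are shown with each match in capitals on either strand (CAGGTG or CACCTG). They come from RefSeq, build GRCh38.p14, and run from 250 bases before to 50 after an annotated start, written 5′ to 3′ on the gene's strand. The windows are chr3:190322397-190322696 (minus strand) for CLDN1, chr7:101237753-101238052 (minus strand) for CLDN15, chr7:73770221-73770520 (minus strand) for CLDN3 and chr17:7262429-7262728 (minus strand) for CLDN7.
CLDN1: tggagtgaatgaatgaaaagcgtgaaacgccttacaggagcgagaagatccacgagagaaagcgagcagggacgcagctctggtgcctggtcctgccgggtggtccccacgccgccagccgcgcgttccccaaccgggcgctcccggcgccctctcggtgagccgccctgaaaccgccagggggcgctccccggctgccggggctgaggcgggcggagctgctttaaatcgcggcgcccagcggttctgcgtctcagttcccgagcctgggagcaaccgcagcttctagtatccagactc
CLDN15: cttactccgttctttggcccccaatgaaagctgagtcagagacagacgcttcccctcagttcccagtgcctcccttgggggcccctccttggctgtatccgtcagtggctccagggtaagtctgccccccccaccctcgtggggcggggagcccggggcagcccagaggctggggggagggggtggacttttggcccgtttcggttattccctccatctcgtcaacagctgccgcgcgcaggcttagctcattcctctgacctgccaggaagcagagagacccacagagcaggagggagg
CLDN3: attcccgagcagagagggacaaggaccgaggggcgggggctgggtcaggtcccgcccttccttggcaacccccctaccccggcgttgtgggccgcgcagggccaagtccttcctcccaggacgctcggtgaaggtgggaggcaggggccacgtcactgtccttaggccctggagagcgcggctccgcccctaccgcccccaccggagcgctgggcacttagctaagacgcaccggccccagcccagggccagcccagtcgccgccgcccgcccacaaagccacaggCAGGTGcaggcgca
CLDN7: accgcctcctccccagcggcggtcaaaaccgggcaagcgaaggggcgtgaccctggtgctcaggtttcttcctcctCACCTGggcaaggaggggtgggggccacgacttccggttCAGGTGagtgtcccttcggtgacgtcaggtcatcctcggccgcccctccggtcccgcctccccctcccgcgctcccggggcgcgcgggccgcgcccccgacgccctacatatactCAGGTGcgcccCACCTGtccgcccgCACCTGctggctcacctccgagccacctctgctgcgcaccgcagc
The windows of CLDN1 and CLDN15, which rose, held no E-box, while CLDN14, which also rose, had 1 or more in 2 of its 3 windows, beginning at -62, 31 and 35. The window of CLDN3 held 1, which begins 36 bases after the start, and that of CLDN7 held 5, beginning at -174, -135, -20, -9 and 5 from it. A second annotated CLDN7 window held none. All 10 claudins had at least 1 window, 16 in all, of which 5 held the E-box, against 20.6% of 35116 RefSeq promoter windows of 300 bases. Both windows of CLDN10, which fell, held none. CLDN14 was the only risen claudin with an E-box, and its call was lost under median scaling and for unnormalized arrays. Whether E-boxes go with the direction of change was not tested. The core ACCGGT of the grainyhead motif, which is its own reverse complement, was in 0 of the 16 windows and in 1.83% of all. A match of letters is not a binding site, and the windows say nothing of distant sequence.

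Markers of epithelial and other cell types were read on each array, without a test of the identity of the cell line. All 7 epithelial markers were detected on both scrambled arrays and 5 on each ADAR shRNA array, where EPCAM and CDH1, the gene of E-cadherin, were not above background and the keratin genes KRT7, KRT8, KRT18 and KRT19 were detected. The summed raw signal of the 7 was 2577 to 2853 in ADAR shRNA cells, against 24905 to 26153 in scrambled cells. By the brightest probe of each, 5 of the 7 fell, 1 rose and 1 did not pass. MUC1 rose by 0.67 (SE 0.22, adjusted p = 0.0355), and KRT18 differed by -0.44 (SE 0.32, adjusted p = 0.277). Of 6 blood cell markers 2 were detected, CD14 and CD68, and the sum of the 6 was 2229 to 2813 in ADAR shRNA cells, against 1172 to 1257 in scrambled cells, while PTPRC, CD3E, LYZ and HBB were detected on no array. By the brightest probe, CD14 rose by 4.01 (SE 0.28, adjusted p = 2.30e-05 with limma) and CD68 by 1.43 (SE 0.20, adjusted p = 0.000721). A dimmer CD14 probe rose at least 8.58-fold (adjusted p = 0.000132). Dimmer CD68 probes did not pass (1.08 and 0.30, adjusted p = 0.0569 and 0.301). The sums of 6 fibroblast markers were 362 to 363 against 488 to 565, with COL3A1 undetected throughout, and those of 6 endothelial markers 289 to 298 against 320 to 352, with VWF, CDH5, KDR, TEK and CLDN5 undetected. Of the 3 fibroblast markers tested, PDGFRB rose at least 2.06-fold (adjusted p = 0.00173). LUM and COL1A1 fell at least 3.48-fold and 1.61-fold (adjusted p = 7.84e-05 and 0.00763). The sums of 12 alveolar and airway markers were 728 to 762 in ADAR shRNA cells and 916 to 1036 in scrambled cells, and 8 of them, among them SFTPC, SFTPB and NAPSA, were detected on no array. Of these 12, 3 and 4 were detected on the ADAR shRNA arrays, against 1 and 2 on the scrambled arrays. The blood, fibroblast, endothelial and alveolar sums are of unnormalized signal and include probes at background. Median raw signal of all probes was 56.8 to 58.4 on the ADAR shRNA arrays, against 61.0 to 66.7 on the scrambled arrays. ABCA3 rose at least 5.77-fold (adjusted p = 3.26e-05), and AGER did not pass. LAMP3 fell by 2.71 (adjusted p = 2.08e-05), but another LAMP3 probe did not pass (-0.26, adjusted p = 0.286). The part of these levels in the claudin differences was not tested. Over all probes tested, the Pearson correlation of log2 signal was 0.99 and 0.98 within groups and 0.80 to 0.82 between groups. Whether the groups differed in more than the shRNA was not tested.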

How the data were processed

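The values came from 4 arrays, 2 of ADAR shRNA cells and 2 of scrambled cells, grouped by sample title. Per the file headers, the deposited table held for each probe a raw intensity on a linear scale, its detection p-value, the standard error over beads and the bead count. The submitters' processing notes name GenomeStudio, whose version is not given in the sources used here. The authors' second table holds processed intensity values by an unstated method and served as an alternative. Its medians were 8.02 to 8.05, 25.1% to 25.2% of its values lay below 0, and its order of probes on each array was that of the raw signal. Before log2, its values under 16 were set to 16, so all values up to the array medians took that level.

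Intensities were background corrected with normexp, using the detection p-values, with an offset of 16, quantile normalized and log2 transformed in limma 3.58.1 under R 4.3.3; the authors deposited no log2 values. Every probe detected on at least 2 arrays entered lmFit and eBayes (2 residual and 5.83 prior degrees of freedom), 2-sided, with Benjamini-Hochberg adjustment over 21263 probes and no replicate block. The fit was tested on simulated data. Probes took gene symbols from the platform annotation, where 30113 had 1 symbol, 8 several, and 17201 were not listed and are unnamed here. List genes that the annotation used here does not name were not analysed here.

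A probe undetected in a group has only a bound there: the mean of the brighter group was set against the mean, per dim array, of the higher of the lowest detected signal and its own. Levels of different probes were not compared. After scaling, 18.6% of probes on the ADAR shRNA pair and 26.6% on the scrambled pair differed by more than bead error, so neither pair was one reading deposited again. The number of arrays limits the precision. Named genes were all claudin members, ADAR, and up to 2 rises and 2 falls per list with groups that did not overlap. CLDN19, CLDN20, CLDN23, TJP1, OCLN and ST14 fall outside that rule and were chosen after their values were seen. The members and lists were chosen with earlier results of these data known. Alternatives covered the background correction, the normalization, the filter, the variance model, the replicate block, one probe per gene and each array left out.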

Additional observations from a re-analysis of the deposited data

How the results depend on the processing

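The counts and the brightest ADAR probe were recomputed under 15 alternatives and the claudin probes under 13 to 15, where they were tested. Promoter matches and marker sums had none. Between 2 and 3 claudin probes rose and 3 to 4 fell, except that 1 fell under a stricter filter (detection p below 0.01 on each of the 4 arrays), a filter that removes probes lost from a group; 6 tight junction genes then changed in place of 30, and 6976 probes in place of 10750. With 1 probe per gene 7044 features changed. The CLDN12 difference of 0.30 turned to -0.41 under median scaling and to -0.55 for unnormalized arrays, and that of the CLDN14 probe ILMN_1661194 to -0.032 and -0.17. Both scalings shift the median of all probes (-0.38 and -0.52), and relative to it CLDN12 lay at -0.03 and CLDN14 at 0.35 in both. The dim CLDN14 probe ILMN_2328575 read -0.043 with no normalization (0.47 relative to that median), and -0.10 to 0.37 with 1 array left out. The cause of the leave-out values was not tested. Replicates share a number without a stated pairing: deviations of same-numbered arrays correlated at 0.14 over probes, and with the number as a replicate block 11573 probes changed, including 3 claudin probes risen and 4 fallen, as without it. The brightest ADAR probe fell under every alternative (-1.72 to -0.85). The second tested ADAR probe, which did not pass (-0.19, adjusted p = 0.557 with limma), was not run under them. Signals near background limit CLDN2, CLDN4 and CLDN18.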
